A study of Drosophila melanogaster with 2 samples.

Results

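The 8 Hox genes of Drosophila melanogaster were examined as binding sites of CG13287, a fly protein that was tagged with eGFP and mapped by chromatin immunoprecipitation followed by sequencing. The genes are labial (lab), proboscipedia (pb), Deformed (Dfd), Sex combs reduced (Scr), Antennapedia (Antp), Ultrabithorax (Ubx), abdominal-A (abd-A) and Abdominal-B (Abd-B). They were chosen by name and are 8 of the 13968 protein-coding genes annotated on the chromosome arms. A member was counted as bound at its promoter when a peak summit lay within 500 bp of any of its annotated transcription start sites (TSSs), and separately as bound in its gene body when a summit lay inside the annotated gene.

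All material came from 1 group, whole embryos aged 6 to 24 h of the strain CG13287-GFP, which carries the fusion as a transgene, with 2 biological replicates. Chromatin was sonicated to 200 to 800 bp and the fusion protein was recovered with an anti-GFP antibody. Whether CG13287 binds a site in a few cells or in most cells cannot be told apart in whole embryos, and no other genotype, stage or control sample was analysed here. The data were peak lists in the dm6 assembly, each peak with a summit and a signal, the value that the submitters' peak calling assigned to it. The depth behind each signal is unknown. 4 lists had passed a filter on the irreproducible discovery rate, a measure of how well peak ranks repeat. They were a conservative list of 5955 peaks and an optimal list of 7026 peaks from both replicates together, and a list of 3997 peaks from replicate 1 and 7340 peaks from replicate 2, all counted on the chromosome arms. The longer ranked lists from before this filter were read for weak entries. With 2 libraries of 1 group there was nothing to test between groups, and all values below are descriptions of the lists.

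Hox genes encode homeodomain transcription factors that give each body segment its identity along the head-to-tail axis. In the fly they lie in 2 clusters on chromosome arm 3R, the Antennapedia complex, which runs from lab to Antp, and the bithorax complex, which runs from Ubx to Abd-B. Their domains are set up by segmentation genes and then kept by Polycomb and trithorax group proteins, which act on enhancers and response elements in long introns and in the DNA between the genes. Within the Antennapedia complex, lab acts in the head and the midgut, pb in the mouthparts, Dfd in the jaw-forming head segments, Scr in the labial segment, front thorax and salivary gland, and Antp in the thorax. Within the bithorax complex, Ubx acts in the rear thorax and front abdomen, abd-A in the middle abdomen and Abd-B in the rear abdomen and genitalia.

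The sequences under the summits that carry the results are shown first. Each runs for 50 bp on either side of a summit of the conservative list, from the Release 6 (dm6) genome. It is written 5′ to 3′ on the minus strand, on which lab, pb, Ubx, abd-A, Abd-B and lncRNA:iab8 are annotated. None overlaps an annotated untranslated region. Capitals mark every match, on either strand, to the 8 short motifs searched (named further down), and matches can overlap. The first set holds the 3 Hox promoters bound in the conservative list, at lab, Ubx and abd-A.
lab promoter, chr3R:6678612-6678712: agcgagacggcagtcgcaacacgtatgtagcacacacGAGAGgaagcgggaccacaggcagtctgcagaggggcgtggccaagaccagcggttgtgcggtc
Ubx promoter, chr3R:16734508-16734608: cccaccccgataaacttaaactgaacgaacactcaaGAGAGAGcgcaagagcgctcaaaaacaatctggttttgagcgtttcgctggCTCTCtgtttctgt
abd-A promoter, chr3R:16830159-16830259: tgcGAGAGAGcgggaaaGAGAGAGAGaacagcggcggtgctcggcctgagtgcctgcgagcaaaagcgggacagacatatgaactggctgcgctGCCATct

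The other set holds the strongest summits that lay in introns of Hox genes or of the noncoding gene lncRNA:iab8 between abd-A and Abd-B, together with a weaker Ubx intron summit that carried the most motif matches.
pb intron, chr3R:6709017-6709117: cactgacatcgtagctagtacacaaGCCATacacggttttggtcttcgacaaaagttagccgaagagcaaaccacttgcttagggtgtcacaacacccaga
Ubx intron, chr3R:16703004-16703104: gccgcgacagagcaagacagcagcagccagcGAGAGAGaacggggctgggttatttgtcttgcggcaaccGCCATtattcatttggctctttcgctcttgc
Ubx intron near asRNA:PS4, chr3R:16719971-16720071: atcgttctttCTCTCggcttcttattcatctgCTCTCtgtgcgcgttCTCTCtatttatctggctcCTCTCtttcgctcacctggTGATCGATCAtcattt
lncRNA:iab8 intron, abd-A side, chr3R:16847345-16847445: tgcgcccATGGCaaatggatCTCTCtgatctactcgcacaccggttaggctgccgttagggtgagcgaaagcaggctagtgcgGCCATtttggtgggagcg
lncRNA:iab8 intron, Abd-B side, chr3R:16919197-16919297: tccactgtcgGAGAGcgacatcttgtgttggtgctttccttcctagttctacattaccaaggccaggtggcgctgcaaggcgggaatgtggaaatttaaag

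CG13287 was found at the promoters of 3 Hox genes in the conservative list, lab, Ubx and abd-A. It was found in the gene bodies of 3, pb, Ubx and Abd-B. The promoter share is close to the background, since 39.8% of all protein-coding genes had a promoter summit in this list. Promoter summits were found at 4 members in the optimal list (43.7% of all protein-coding genes), where Scr joined the same 3 genes, and at 5 in replicate 2's own list (44.9%), where Dfd joined as well. In replicate 1's own list only Ubx and abd-A had one, against 30.3% of all protein-coding genes. Ubx and abd-A were thus the only Hox genes with a promoter summit in all 4 filtered lists.

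Gene bodies held summits at 3 members in the conservative list, 5 in the optimal list, 2 in replicate 1 and 6 in replicate 2, against 17.4%, 20.2%, 11.4% and 20.3% of all protein-coding genes in the same lists. Hox genes are long, however, and 6 of them (pb, Scr, Antp, Ubx, abd-A and Abd-B) span at least 20000 bp, as do 1020 protein-coding genes in all. Of these 6 long Hox genes, 3 had a gene-body summit in the conservative list, 4 in the optimal list, 2 in replicate 1 and 5 in replicate 2. The shares of all long genes were 40.1%, 49.0%, 23.8% and 52.8%. Over all 8 Hox genes, the shorter lab and Dfd included, gene-body summits numbered 1.19 per 100 kb in the conservative list. The mean over all long genes was 1.45 per 100 kb. The direction was not the same in every list, with 2.37 against 1.99 in the optimal list, 0.593 against 0.689 in replicate 1 and 2.37 against 2.27 in replicate 2. At promoters, the 6 long Hox genes had 2, 3, 2 and 3 called genes in the conservative, optimal, replicate 1 and replicate 2 lists, against 47.6%, 55.9%, 31.6% and 58.7% of all long genes. Read against genes of like length, the gap was widest for gene bodies in replicate 2, and at promoters the Hox counts stood near the background in every list.

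**Figure D1:**
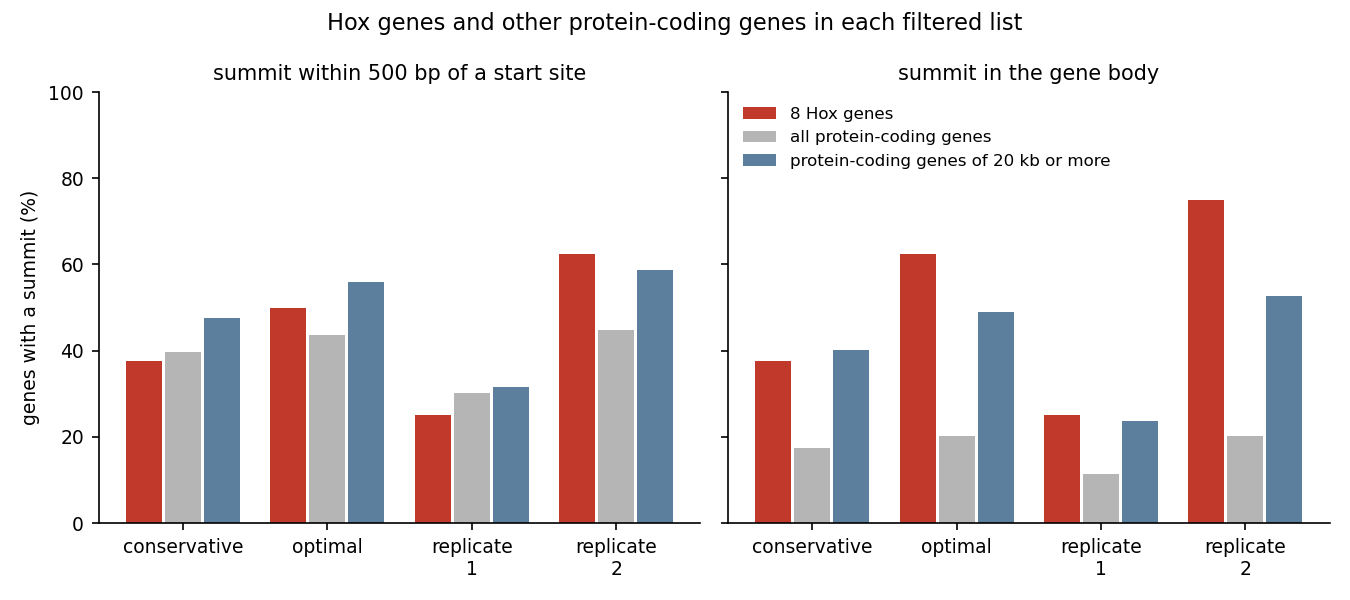
Share of genes with a summit (y axis, %) within 500 bp of a start site (left) and in the gene body (right) in the 4 filtered lists, for the 8 Hox genes (red), all protein-coding genes (grey) and protein-coding genes of at least 20000 bp (blue). In gene bodies the share of the 8 Hox genes exceeds that of all protein-coding genes in every list. It is above the share of long genes in the optimal and replicate 2 lists. In replicate 1 it is near that share, with 2 of 8 Hox genes beside 23.8% of long genes. In the conservative list it is just below, with 3 of 8 Hox genes beside 40.1% of long genes. All 3 are among the 6 long Hox genes, whose own share is not drawn and is above 40.1%. At promoters 3 of 8 Hox genes stand beside 39.8% of all genes in the conservative list.

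At the lab promoter (lab, FBgn0002522, chr3R:6661427-6678590, minus strand) the conservative summit lay 72 bp upstream of the distal TSS, with a signal of 133 and rank 4020 of 5955. Replicate 2 had it at 85 bp upstream with a signal of 89.9. Replicate 1 had no entry there in its filtered list and 1 entry in its ranked list, with a signal of 40.7 at 78 bp upstream. Of the single libraries, only replicate 2 thus had the lab promoter in its filtered list. The other lab TSS, inside the gene, had no entry within 500 bp in any list. A lab intron summit 1098 bp upstream of that TSS was in the optimal list (signal 72.8) and at 1170 bp upstream in replicate 2 (57.2).

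Ubx (FBgn0003944, chr3R:16656623-16734426, minus strand) has a single TSS, and a summit stood 132 bp upstream of it with a conservative signal of 169 and rank 3162. Its signal was 71.2 in replicate 1, at 145 bp upstream, and 94.4 in replicate 2, at 132 bp upstream. The abd-A gene (FBgn0000014, chr3R:16807214-16830049, minus strand) had a summit 160 bp upstream of its distal TSS with a conservative signal of 177 and rank 3012. It had 66.0 in replicate 1, at 183 bp upstream, and 114 in replicate 2, at 144 bp upstream. The same abd-A summit also fell 457 bp upstream of the next TSS of the gene, so that 2 annotated start sites shared it. All 3 conservative promoter summits lay upstream of the TSS, between 72 and 160 bp from it. Beyond the 500 bp limit the nearest summit in the conservative list was that of Abd-B at 1585 bp, upstream of a TSS inside the gene.

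Among the genes bound at a promoter, these 3 stood in the lower part of the range. Over the 5565 protein-coding genes with a promoter summit in the conservative list, the median of the strongest promoter signal was 255, with quartiles of 153 and 513. The signal of lab exceeded 17.9% of these genes, that of Ubx 30.3% and that of abd-A 32.9%. In replicate 1, Ubx exceeded 19.5% and abd-A 15.5% of 4239 bound genes, and in replicate 2, Ubx exceeded 28.1% and abd-A 39.3% of 6266. No Hox promoter summit was above the median of the conservative list, whose median signal over all peaks was 178. The genes whose promoter signals came nearest were CG4658 and CG5846 for lab (both 133), tay and cora for Ubx (both 169), and Ddr and CG5521 for abd-A (both 177).

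**Figure D2:**
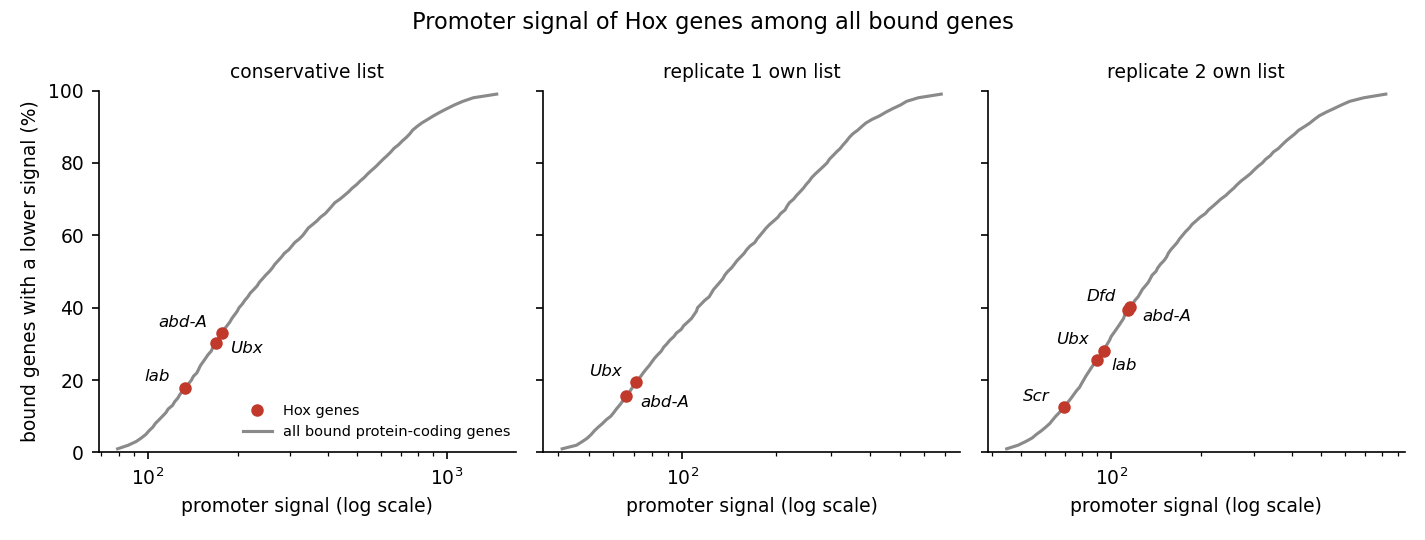
Strongest promoter signal per gene (x axis, log scale) against the share of bound protein-coding genes with a lower signal (y axis, %) in the conservative list and in each replicate's own list; the grey curve is all bound genes and red points are Hox genes. Every Hox gene lies in the lower part of its curve, between 12.5% and 40.2% in replicate 2.

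The remaining promoters differed between lists. Dfd (FBgn0000439, chr3R:6791836-6802428, plus strand), with 1 TSS, had a summit 228 bp upstream with a signal of 116 in replicate 2, rank 3059 of 7340, and a weaker one 25 bp upstream with 15.9. It had no entry at its promoter or in its gene body in the ranked lists of replicate 1 or of both replicates together. Of all replicate 2 summits, 419 of 7340 (5.71%) had no partner within 250 bp in the ranked conservative list or the ranked replicate 1 list. Scr (FBgn0003339, chr3R:6823120-6849981, minus strand) had a summit 93 bp upstream of its distal TSS in the optimal list (92.3) and 80 bp upstream in replicate 2 (69.6). Replicate 2 also had a summit of 52.3 at 300 bp upstream of the other Scr TSS, and replicate 1 held only a ranked entry of 28.1 at the distal TSS. The single TSS of pb (FBgn0051481, chr3R:6707800-6742063, minus strand) had an entry in only 1 of the 8 lists, a ranked replicate 2 entry of 38.2 at 177 bp upstream.

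No TSS of Antp or Abd-B was bound in any filtered list. Antp (FBgn0260642, chr3R:6896253-6999228, minus strand) has 3 TSSs. Its strongest promoter entries in the ranked lists had signals of 10.2 in replicate 1, 41.0 in replicate 2, 42.0 in the ranked conservative list and 56.3 in the ranked optimal list. Abd-B (FBgn0000015, chr3R:16927212-16972236, minus strand) has 6 TSSs. The TSS used by Abd-B-RB and Abd-B-RH had a ranked entry 250 bp upstream with a signal of 106 in the ranked conservative list, 55.2 in replicate 1 and 29.5 in replicate 2. Its signal was comparable to peaks that passed, but its scaled score was 228, below the lowest score of 830 in the filtered lists. Of the 19 annotated TSSs of the 8 genes, 4 had a summit within 500 bp in the conservative list. The numbers were 5 in the optimal list, 3 in replicate 1 and 7 in replicate 2. The share of all annotated TSSs called by this rule was not computed, so these counts have no background here. In the ranked conservative list, 6 of the 8 genes had a promoter entry, against 60.7% of all protein-coding genes, and all 6 long Hox genes had a gene-body entry, against 91.1% of long genes.

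In the conservative, optimal and replicate 2 lists, the strongest summit at any Hox gene was in an intron of pb at chr3R:6708892-6709220, 33.0 kb downstream of the pb TSS and near the 3′ end of the gene. Its signal was 348, rank 1508 of 5955 in the conservative list, higher than 74.7% of the list. The replicates gave it unlike standing. In replicate 2 it had 298 and rank 974 of 7340, whereas in replicate 1 it had 64.1 and rank 3012 of 3997, below the Ubx and abd-A promoters at 71.2 and 66.0. The nearest TSS of any gene, that of Ccp84Aa, a cuticle protein gene, was 4983 bp away.

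Ubx had 2 intron summits in the conservative list. The stronger, at chr3R:16702961-16703188 and 31.4 kb downstream of the TSS, had a signal of 205, with 60.6 in replicate 1 and 157 in replicate 2. It exceeded the Ubx promoter in the conservative list and in replicate 2, but not in replicate 1. The weaker, at chr3R:16719746-16720295, had 80.5 with a scaled score of 843, 60.6 in replicate 2 and only a ranked entry of 29.3 in replicate 1. It lay 106 bp upstream of the TSS of asRNA:PS4, an antisense noncoding gene inside Ubx. The single Abd-B summit of the conservative list, at chr3R:16969884-16970433, had a signal of 81.8 and a scaled score of 834. It was in neither replicate's filtered list nor the optimal list, as was the case for 130 of 5955 conservative summits (2.18%), and its ranked entries were 29.6 in replicate 1 and 54.7 in replicate 2.

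Further intron summits came from the optimal and replicate 2 lists. Antp had 1 at 20.5 kb from its nearest TSS, with a signal of 94.7 in the optimal list and 70.6 in replicate 2, and a ranked entry of 26.2 in replicate 1. Abd-B had 2 others. That at chr3R:16948477-16949026 had 136 in the optimal list and 112 in replicate 2, and that at chr3R:16957710-16958259 had 75.9 and 67.0 in the same lists, and neither had a replicate 1 entry within 250 bp. The Abd-B summits of the optimal list and of the conservative list were thus at different places.

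Across the complexes as a whole, summits were less dense than on the arm, and those present lay more often away from start sites. The Antennapedia complex (chr3R:6661427-6999228, 338 kb, 20 protein-coding genes) held 4 conservative summits, or 1.18 per 100 kb. The bithorax complex (chr3R:16656623-16972236, 316 kb, 6 protein-coding genes) held 9, or 2.85 per 100 kb, and arm 3R 1375, or 4.29 per 100 kb. In the optimal list the values were 2.07, 5.07 and 5.01 per 100 kb, in replicate 1 they were 0.888, 1.58 and 2.88, and in replicate 2 they were 3.55, 4.75 and 5.22. The bithorax complex was thus below the arm in 3 of the 4 lists and at about the same density in the optimal list. The Antennapedia complex has 56 annotated TSSs, the bithorax complex 38 and the arm 5483.

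Of the 9 conservative summits of the bithorax complex, 3 lay within 500 bp of a TSS of any gene, and of the 4 of the Antennapedia complex, 2 did. On arm 3R 88.7% of summits did. Summits farther than 500 bp from every TSS therefore numbered 1.90 per 100 kb in the bithorax complex and 0.592 in the Antennapedia complex, against 0.486 on the arm. In the bithorax complex this density was above that of the arm in every filtered list, at 3.49 against 0.792 in the optimal list, 0.951 against 0.215 in replicate 1 and 3.80 against 0.929 in replicate 2. The replicate 1 value rests on 3 summits. With only peaks of the top scaled score of 1000, it was 1.27 against 0.290. In the Antennapedia complex the values were 1.18, 0.592 and 1.18 in the optimal, replicate 1 and replicate 2 lists. These were also above the arm in each list, but they rest on only 4, 2 and 4 summits. The 6 conservative summits of the bithorax complex away from TSSs include a pair of overlapping peaks. These counts were made after the map had been seen, and they were not tested.

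**Figure D3:**
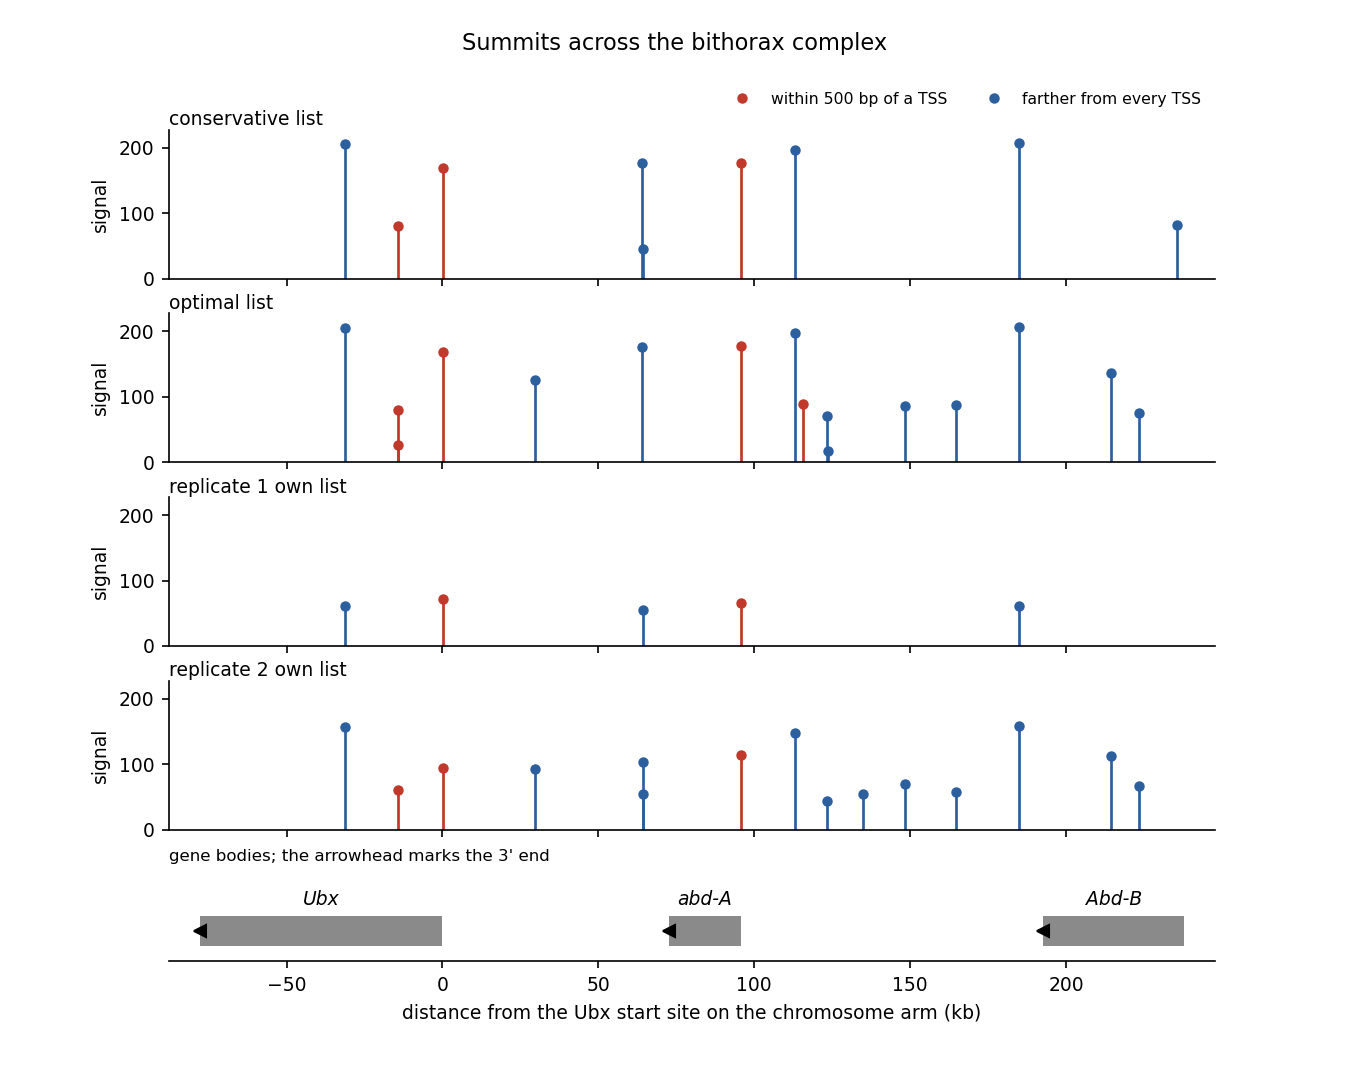
Summits across the bithorax complex by position (x axis, kb from the Ubx start site) and signal (y axis) in the 4 filtered lists. Gene bodies are drawn below. The panels share a y axis range, but signals can be compared within a list only. Red summits lie within 500 bp of a TSS of any gene and blue ones farther from every TSS. The 5 replicate 1 summits recur at the same places in the other 3 lists, and blue summits outnumber red ones in each list.

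Outside the Hox genes, the bithorax complex carried 4 conservative summits. A summit in introns of lncRNA:iab8 and MSAmiP, 17.3 kb upstream of the abd-A TSS at chr3R:16847357-16847507, had a signal of 197, with 147 in replicate 2 and only a ranked 43.2 in replicate 1. Another lncRNA:iab8 intron summit, at chr3R:16919128-16919380 and 14995 bp from the nearest Abd-B TSS, had 207, the highest signal of the complex, with 60.8 in replicate 1 and 158 in replicate 2. A pair of overlapping peaks between Ubx and abd-A, at 16798585 and 16798825, had 176 and 45.2, and replicate 1 held 1 entry of 55.7 for both. In the optimal list and replicate 2, a further summit stood in an intron of lncRNA:bxd between Ubx and abd-A (126 and 92.9). The optimal list also had a summit 110 bp from the TSS of lncRNA:iab4 (88.6). The noncoding RNAs iab4, iab8 and bxd are transcribed through the regulatory DNA of abd-A, Abd-B and Ubx.

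**Figure D4:**
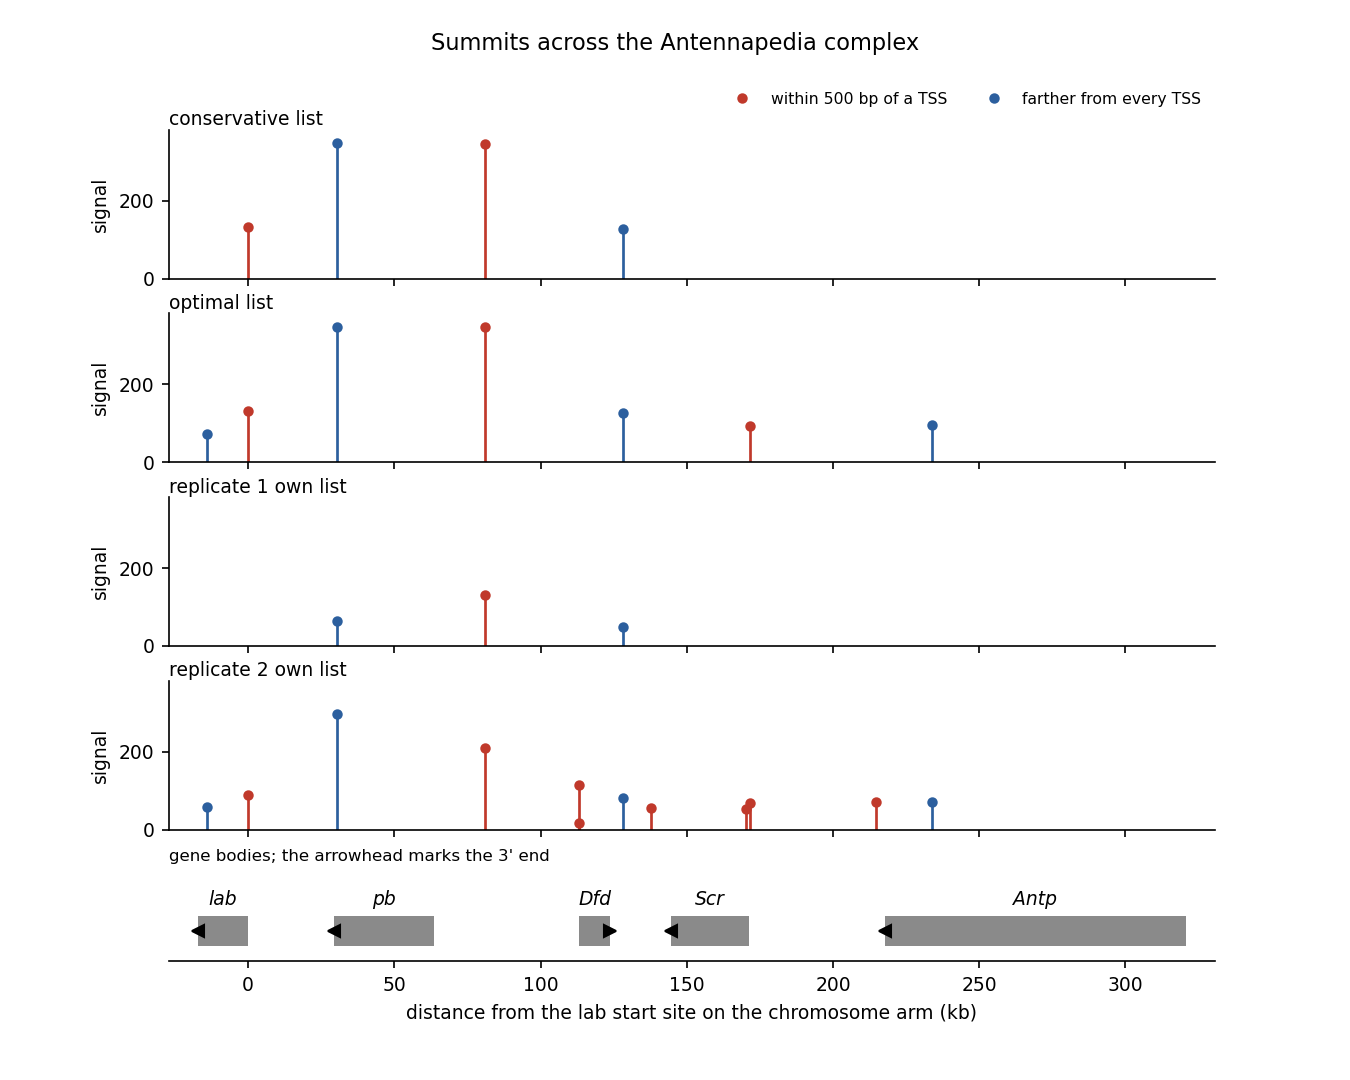
Summits across the Antennapedia complex by position (x axis, kb from the lab start site) and signal (y axis) in the 4 filtered lists. Gene bodies are drawn below. The panels share a y axis range, but signals can be compared within a list only. Red summits lie within 500 bp of a TSS of any gene and blue ones farther from every TSS. The pb intron and the bcd promoter, with signals of 348 and 347, are the tallest in the conservative list, and Antp, the longest gene, has no summit there.

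Among the 54 other genes of both complexes, bicoid (bcd), which sits between pb and Dfd and encodes the maternal head determinant, was the only protein-coding gene with a promoter summit in any filtered list. Its signal was 347 at 159 bp upstream of the TSS, with 130 in replicate 1 and 209 in replicate 2, so that it exceeded every Hox promoter in each list. No filtered list had a promoter summit at the other 17 protein-coding genes. These include the homeobox genes fushi tarazu, zen and zen2 and the cuticle genes of the Ccp84A group. In each filtered list 1 of these 18 protein-coding genes was thus bound. The shares of all protein-coding genes were 39.8% in the conservative list, 43.7% in the optimal list, 30.3% in replicate 1 and 44.9% in replicate 2. The other bound genes were noncoding, asRNA:PS4 (80.5) in the conservative list, lncRNA:iab4 in the optimal list, and lncRNA:CR42651 (55.6) and lncRNA:CR45559 (71.4) in replicate 2. A summit between Dfd and mir-10, 2735 bp from the mir-10 TSS, had 127 in the conservative list, 48.8 in replicate 1 and 80.1 in replicate 2.

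The replicates weighted the summits of the complexes differently. Over the 5841 conservative summits with an entry within 250 bp in both replicates' ranked lists, the ratio of replicate 2 signal to replicate 1 signal had a median of 1.60, and the middle 90% ran between 0.933 and 3.03. At the pb intron the ratio was 4.66, above 98.6% of summits. The lncRNA:iab8 summit nearer to abd-A had 3.40, above 97.1%, and the Ubx intron summit and the other lncRNA:iab8 summit had 2.59 and 2.60. Other summits away from TSSs were nearer to the median, with 1.64 between Dfd and mir-10, 1.85 and 0.966 at the pair of peaks between Ubx and abd-A, and 1.85 at the Abd-B intron. Among summits within 500 bp of a TSS the ratio was 1.33 at Ubx, 1.61 at bcd, 1.73 at abd-A, 2.07 at asRNA:PS4 and 2.21 at lab, so that the ratios of summits near and away from TSSs overlapped. Over all summits away from TSSs the median ratio was 1.71, and over summits within 500 bp of a TSS it was 1.58. Of the 13 conservative summits in the complexes, 11 had a ratio above the overall median, but 2 of the 13 share a replicate 1 entry. A partner in both replicates' own filtered lists was present for 9 of these 13 summits (69.2%), against 64.8% of all conservative summits. Replicate 2 also has the longer list, and the part of this difference in the ratios was not tested.

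**Figure D5:**
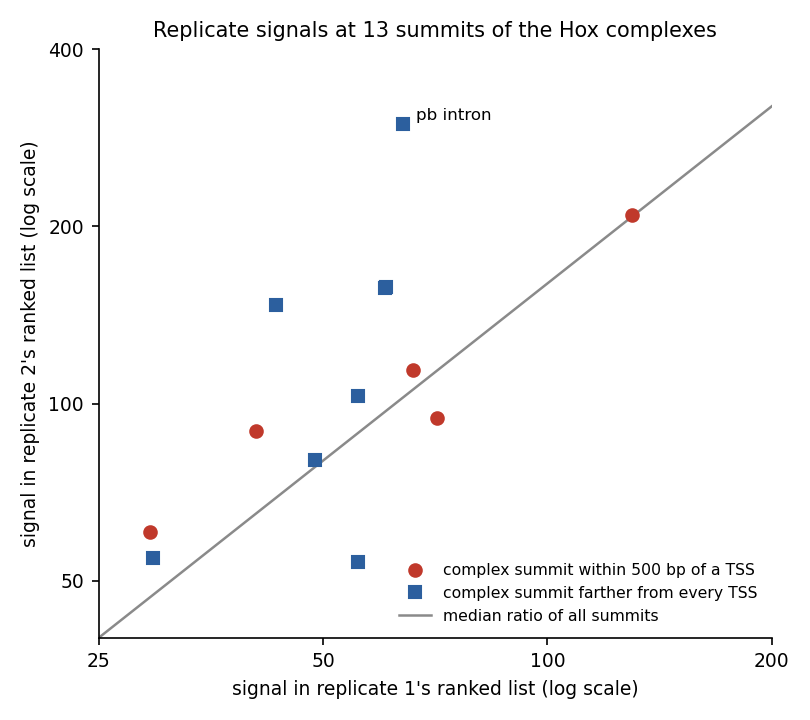
Signal in replicate 1's ranked list (x axis, log scale) against signal in replicate 2's ranked list (y axis, log scale) at the 13 conservative summits of the Hox complexes; red circles lie within 500 bp of a TSS, blue squares farther away, and the grey line is the median ratio of 1.60 over all conservative summits. The pb intron stands highest above the line, with 64.1 in replicate 1 and 298 in replicate 2; 2 squares near 60.6 on the x axis overlap.

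Of the 8 motifs searched, GAGAG was in most of the Hox windows. This string, the core that GAGA factor (Trl) recognises, was found on either strand in 5 of the 7 windows that extend 100 bp each way from the conservative Hox summits, against 27.7% of the 5955 windows of the whole list. Within 50 bp on either side, a part of the same windows, it was in 5 of 7, against 15.6%. In replicate 2 it was in 10 of 14, against 28.6%. Most conservative Hox summits recur among the replicate 2 summits, so these counts are not independent of each other. The windows with GAGAG were those at the lab, Ubx and abd-A promoters and both Ubx introns, and the abd-A window printed above holds 5 overlapping or separate matches. GCCAT, the core of the Pleiohomeotic (Pho) site, was in 4 of 7, against 29.6%, and in 10 of 14 in replicate 2, against 30.1%. Pho and GAGA factor are known as DNA-binding proteins at Polycomb response elements. A match is a string of letters and not a measured site of either factor.

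The other 6 motifs were each in 0 to 2 of the 7 windows. TGATNNAT, the core shared by Hox and Extradenticle sites, was in 2 of the 7 wider windows, both in Ubx introns, against 10.1% of all windows. ATCGAT, the core of the DNA replication-related element, was in 1 of 7, against 32.2%, and that match overlaps 2 TGATNNAT matches at the Ubx intron summit near asRNA:PS4. TATAAA was in 1 of 7, at the Abd-B intron summit, against 24.7%. CAGCTG (an E-box), CAGGTAG (the Zelda site) and TAATTA (a homeodomain core) were in 0 of 7, against 17.3%, 1.06% and 11.1%. With 7 windows, several of them from 1 gene, these shares are coarse. The G and C content within 50 bp of the summit was 63.4% at lab, 47.5% at Ubx and 60.4% at abd-A, with a median of 42.6% and quartiles of 35.6% and 49.5% over all conservative summits.

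Genes that work with or upstream of the Hox genes were read by the same promoter rule in the conservative list, in which 39.8% of all protein-coding genes were bound. Hox cofactors were bound in 5 of 6 cases, with a median signal of 142 over the bound genes. They were led by extradenticle (exd, 287), the homeodomain partner of Hox proteins, tiptop (tio, 221), a zinc-finger gene related to teashirt, and homothorax (hth, 142), which carries Exd into the nucleus. The hth promoter had no summit in either replicate's own filtered list. Segmentation genes that set up Hox domains were bound in 4 of 12 cases (median 162), led by the pair-rule genes opa (205) and hairy (listed as hry, 199) and the segment polarity gene engrailed (en, 125). None of the gap genes hb, Kr, kni, gt and tll was bound in that list, and kni had a promoter summit in the optimal list. Polycomb and trithorax group genes, which maintain Hox expression, were bound in 11 of 19 cases (median 274), led by the remodelling gene kismet (kis, 1041), Scm (943) and Polycomb (Pc, 612).

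Known targets of Hox proteins were bound in 7 of 11 cases (median 146), against the same 39.8% of all protein-coding genes, led by the cell death gene reaper (rpr, 222), the limb gene Distal-less (Dll, 202) and empty spiracles (ems, 156). In the other homeobox clusters, the NK cluster and the Iroquois complex, 5 of 9 genes were bound (median 201.4), led by tinman (tin, 431), lbl (218) and lbe (201.4), which act in the heart and muscles. The 3 bound Hox promoters had a median of 169, so that the maintenance genes alone among these lists had a median above the 255 of all bound genes. In replicate 1 the counts were 2 of 6 cofactors, 1 of 12 segmentation genes, 10 of 19 maintenance genes, 3 of 11 targets and 4 of 9 genes of other clusters, against 30.3% of all genes. Replicate 2 gave 5, 4, 12, 8 and 5 in the same order, against 44.9%.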

How the data were processed

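Deposited peak lists in dm6 were read for 2 replicates of 1 group. The signal is the authors' deposited peak value, and the score is the authors' deposited scaled irreproducible discovery rate score, per the labels and file layout. A deposited offset from the peak start gives the summit. The aligner, the caller of the peaks and any scaling to a control were not given in the sources used here. Library depth is unknown. The age was read from the source name, because the age field is not usable. In the ranked lists of both replicates, 16 columns of values name no replicate and were not used.

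Summits were assigned to genes of the Ensembl BDGP6.54 annotation and sequences came from the Release 6 genome, with Python 3.11.15, pandas 2.3.3 and numpy 2.4.6. The assignment was tested on simulated data. Figures used matplotlib 3.10.9. Partners between lists are summits within 250 bp. Motifs were searched within 100 bp on either side of each summit. The members and lists were chosen with earlier results of these data known. Named genes were the 8 members with every conservative summit, the 3 strongest promoter-bound genes of each gene list, every bound other gene of the complexes, and for each promoter-bound member the 2 genes nearest in signal. Counts by list, replicate, promoter distance and threshold were recomputed under other settings. No test was made.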

Additional observations from a re-analysis of the deposited data

How the results depend on the processing

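The single-replicate lists gave 2 to 5 Hox genes with a promoter summit and 2 to 6 with a gene-body summit, against 3 and 3 in the conservative list. The ranked list before the threshold gave 6 and 7. Only peaks above the median signal left 0 promoter genes. The optimal list, and 1000 bp of flank, each gave 5 gene-body genes. Promoter distances of 200 and 1000 bp left the promoter count at 3. Summits per 100 kb of both complexes together were 1.99, and became 3.52 in the optimal list, 1.22 to 4.13 in single replicates, 0.765 above the median signal and 3.17 with 10000 bp of flank. The Antennapedia complex gave 2.07, 0.888 to 3.55, 0.592 and 2.24 under the same settings. The bithorax complex gave 5.07, 1.58 to 4.75 and 0.951, and 1.90 with only peaks scored 1000, a setting added after the data were seen. Summits away from TSSs, also added then, numbered 1.18 per 100 kb in the optimal list and 0.592 to 1.18 in single replicates for the Antennapedia complex, and 3.49 and 0.951 to 3.80 for the bithorax complex. In single replicates, the bound genes were 2 to 5 for cofactors, 1 to 4 for early regulators, 3 to 8 for targets and 1 to 4 for other genes of the complexes. Across all results and settings, 50 values kept within 1.5 times or the replicate spread and 43 moved. No paired analysis was possible because there is 1 group. Depth is unknown, so a gene without a summit was not detectable as bound here and is not shown to be unbound.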
